A study of Caenorhabditis elegans with 2 samples.

Results

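Binding of an eGFP-tagged copy of the nuclear hormone receptor NHR-21 was examined at 9 genes of Caenorhabditis elegans that control or carry out fatty acid desaturation. The genes were listed by name and matched by symbol to the Ensembl gene models of build WBcel235, where all 9 were found among 19985 protein-coding genes. They are the nuclear receptors nhr-49, nhr-80, nhr-13 and nhr-66, the Mediator subunit mdt-15, the SREBP homologue sbp-1 and the delta-9 desaturases fat-5, fat-6 and fat-7. Each gene was described by all intervals that touched its gene body or the 3 kb upstream of its annotated 5′ end. The chromatin immunoprecipitation and sequencing (ChIP-seq) data came from whole L2 larvae of both sexes of strain OP361, which carries the insertion wgIs361 and the unc-119(tm4063) allele. The antibody label names nhr-21 and the description the eGFP fusion. There was 1 group of 2 biological replicates, with no control sample analysed here, so no comparison between conditions was made. Larvae were used whole, and no value tells in which tissue, or from which fraction of the cells, a signal arose.

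In the worm, delta-9 desaturases place the first double bond into saturated fatty acids, FAT-5 acting mainly on palmitic acid and FAT-6 and FAT-7 on stearic acid, and the products feed the synthesis of polyunsaturated fatty acids and of membrane lipids. NHR-49 is an HNF4-related receptor that promotes expression of desaturase and fatty acid oxidation genes, and it can pair with NHR-80, NHR-13 or NHR-66. NHR-80 and NHR-13 act with it on desaturation, whereas NHR-66 acts with it to hold down genes of lipid remodelling. MDT-15 is the Mediator subunit through which both NHR-49 and SBP-1 reach the transcription machinery, and SBP-1 is the worm's sterol regulatory element-binding protein. Desaturase expression is best known from the intestine.

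Sequence is shown for the 4 optimal intervals that lay upstream of mdt-15 or sbp-1 or at fat-6, which are the optimal intervals at the 9 genes other than those of nhr-49. Optimal intervals are those in the list that the authors thresholded for reproducibility. All 6 at these genes held the same rank by signal there as in the pooled list. Of all 3647 optimal peaks, 11 overlapped an interval of only 1 replicate, so the threshold does not show each interval in both. Each run holds the 300 bases around the summit, from RefSeq's copy of the WBcel235 genome, on the minus strand in each case because all 3 genes are transcribed from it. The first lies at III:5835569-5835868, the second at III:11444817-11445116, the third at IV:11914796-11915095 and the last at IV:11915835-11916134. Capitals mark every match, on either strand, to any of 7 searched words. The word AGGTCA and its variant with a changed second letter, AAGTCA, are motifs bound by many nuclear receptors. The palindrome CACGTG is the E-box, a motif of basic helix-loop-helix proteins. A site for GATA factors of the intestine reads TGATAA, and GAGAGA is a simple GA repeat. The core of the sterol response element was searched as TCACCCCAC and, with any letter in the middle, as TCACNCCAC.
mdt-15 upstream: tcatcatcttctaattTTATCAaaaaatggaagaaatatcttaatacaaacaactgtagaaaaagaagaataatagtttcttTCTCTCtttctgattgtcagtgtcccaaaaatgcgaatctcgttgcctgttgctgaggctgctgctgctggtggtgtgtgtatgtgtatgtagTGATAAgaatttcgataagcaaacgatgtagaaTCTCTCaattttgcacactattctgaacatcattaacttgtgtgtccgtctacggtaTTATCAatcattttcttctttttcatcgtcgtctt
sbp-1 upstream: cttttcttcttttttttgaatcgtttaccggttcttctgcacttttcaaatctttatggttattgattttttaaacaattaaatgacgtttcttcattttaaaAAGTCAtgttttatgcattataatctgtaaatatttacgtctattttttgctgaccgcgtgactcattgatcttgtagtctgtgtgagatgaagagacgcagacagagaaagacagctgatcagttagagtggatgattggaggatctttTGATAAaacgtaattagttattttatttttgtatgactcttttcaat
fat-6 intron: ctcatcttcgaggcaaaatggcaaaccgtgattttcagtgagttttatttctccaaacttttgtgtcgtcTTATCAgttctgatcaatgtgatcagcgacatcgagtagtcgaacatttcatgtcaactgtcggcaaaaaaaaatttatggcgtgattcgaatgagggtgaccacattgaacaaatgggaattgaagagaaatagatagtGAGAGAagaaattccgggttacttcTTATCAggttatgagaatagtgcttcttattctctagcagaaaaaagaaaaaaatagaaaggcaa
fat-6 upstream: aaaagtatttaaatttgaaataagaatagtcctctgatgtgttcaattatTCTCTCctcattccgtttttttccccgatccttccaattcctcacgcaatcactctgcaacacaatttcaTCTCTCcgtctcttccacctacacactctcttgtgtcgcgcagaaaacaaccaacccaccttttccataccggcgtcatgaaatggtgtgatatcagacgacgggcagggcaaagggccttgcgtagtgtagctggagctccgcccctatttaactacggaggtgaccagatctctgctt

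Of the 7 words searched, GAGAGA was present in the 300 bases around 5 of the 6 optimal summits at these genes, including both summits on another chromosome at nhr-49 whose sequence is not printed. The word occurred at 45.1% of all optimal summits, 24.9% of all pooled candidates and 21.8% of all protein-coding promoters of the same length. TGATAA was present at 4 of the 6, against 31.9% of all optimal summits and 30.2% of promoters. AAGTCA occurred only at the sbp-1 summit among the 6 (12.6% of optimal summits, 13.3% of promoters), and CACGTG only at the stronger nhr-49 summit (12.8% and 5.81%). AGGTCA was found at 0 of the 6, against 10.9% of optimal summits and 8.27% of promoters. Neither sterol element word was found at any of the 6, and TCACNCCAC, which includes TCACCCCAC, occurred at 1.32% of all optimal summits. The GC content of the 300 bases ran from 30.7% at sbp-1 and 35.0% at mdt-15 to 46.0% both at the stronger nhr-49 summit and upstream of fat-6. Over all 3647 optimal peaks it was 40.3% ± 6.43 (SD). A match describes the letters in a window and does not show a site in use.

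Among the 9 genes, 4 had an optimal interval: nhr-49 with 2, fat-6 with 2, and mdt-15 and sbp-1 with 1 each. This compares with 4046 of all 19985 protein-coding genes, or 20.2%, under the same rule. With 1000 bp upstream, or with the gene body alone, the count was 2, nhr-49 and fat-6 (all genes 15.2% and 8.67%), and the 6 optimal intervals became 2 with the gene body alone and 3 when only the stronger 50% of peaks counted. When the 3647 strongest intervals of replicate 2 replaced the optimal peaks, 6 genes had one, with nhr-80 and nhr-66 added (all genes 20%). No optimal interval was found at the other 5 genes, nhr-80, nhr-13, nhr-66, fat-5 and fat-7. The 6 optimal signals were 148, 91.3, 90.7, 77.9, 69.5 and 60.7, with a median of 84.3, against 87.3 over all optimal peaks, so 3 lay above and 3 below that value. Optimal signals ranged from 52.2 to 1244 genome-wide, and the highest rank of the 6 was 747. Candidates, which are the 30000 pooled intervals given as input to the threshold, touched the window of 8 of the 9 genes, against 62.3% of all protein-coding genes. The median strongest pooled signal was 48.1 over the 9 genes and 15.7 over all genes, with genes lacking a candidate counted as lowest. Windows were 4.79 to 17.2 kb long with a median of 7.34 kb, longer than the 5.03 kb median of all genes, and longer windows touch more intervals. Per 100 kb, the 9 windows held 8.05 optimal intervals and 64.4 candidates, whereas the genome held 3.64 and 29.9. The genome values also cover sequence outside gene windows. The density over the windows of all genes was not computed, so the difference cannot be assigned to these 9 genes.

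**Figure D1:**
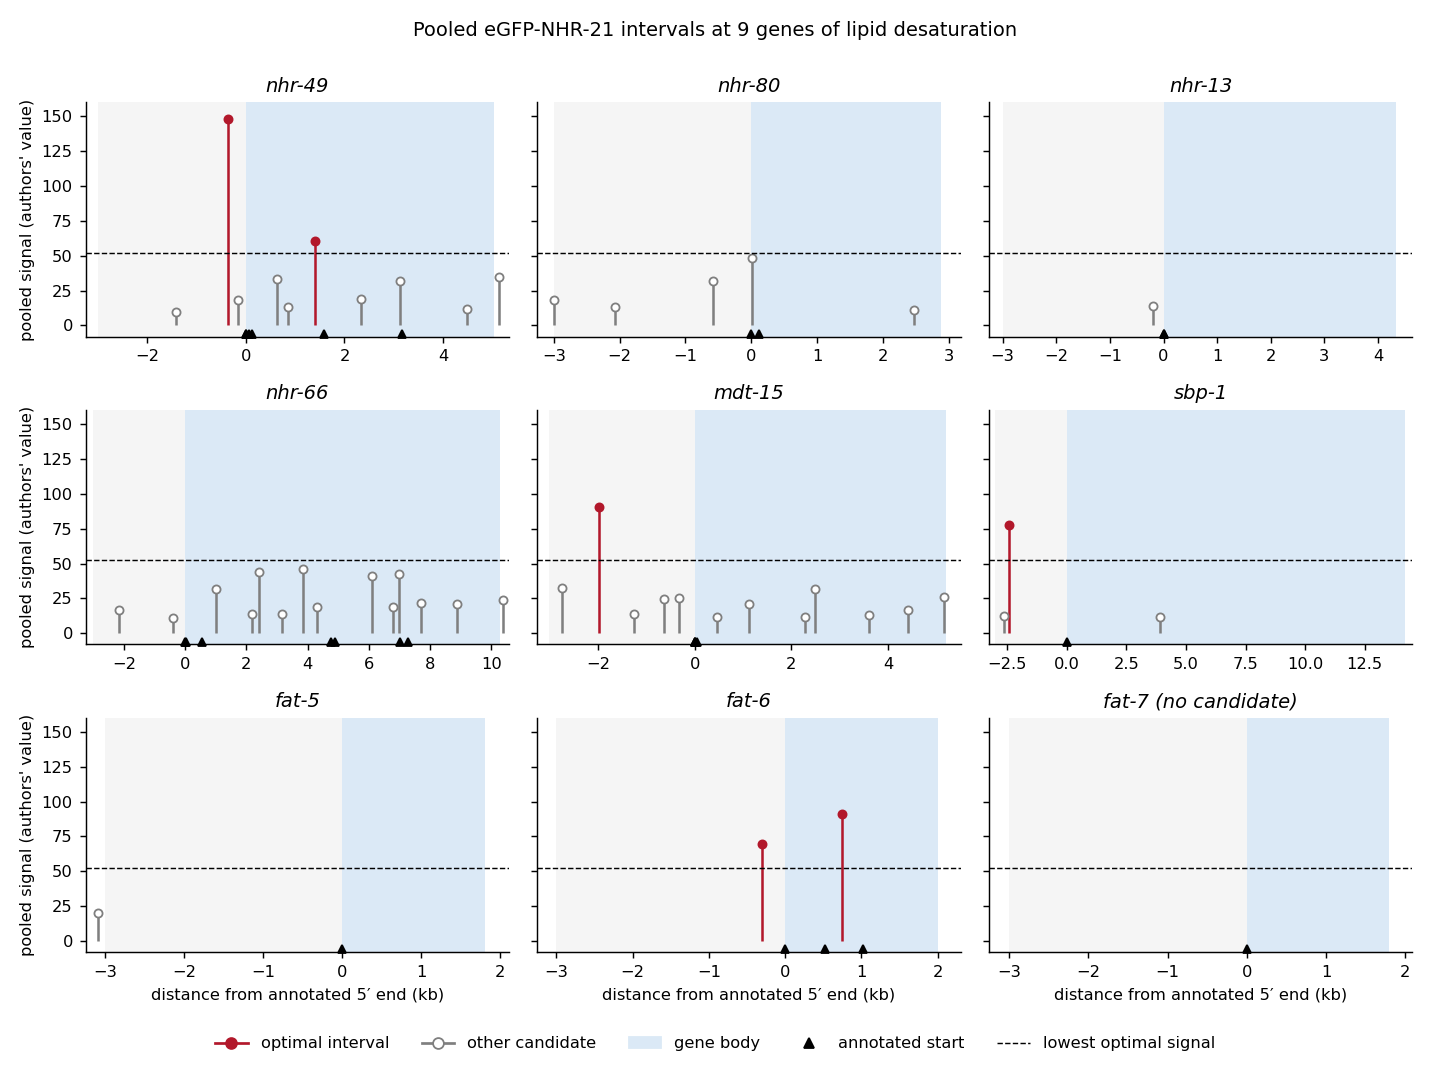
Signal of every pooled candidate (vertical axis, the authors' value) against the distance of its summit from the annotated 5′ end in kb (horizontal axis, negative upstream, a separate scale for each gene), for the 9 genes; red filled points are optimal intervals, open grey points other candidates, blue the gene body, triangles annotated transcript starts and the dashed line the lowest optimal signal, 52.2. The tallest line is the nhr-49 interval at 148, fat-6 has 2 red lines and no other, and the fat-7 panel is empty.

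The gene for NHR-49 itself had the strongest interval of the 9 genes. nhr-49 (WBGene00003639, I:9869651-9874680, plus strand) carried an optimal interval at I:9869090-9869479, in intergenic sequence, with its summit at position -366 bp from the annotated 5′ end (negative values are upstream). Its pooled signal was 148, which ranked 747 of 30000. In replicate 1 the signal there was 63.2 (rank 730) and in replicate 2 it was 85.9 (rank 805), so its place in the order was nearly the same in both. Signals of different lists are on their own scales and only ranks were compared between lists. The other optimal interval, I:9870849-9871238, lay in an intron, at 1393 bp from the first annotated start and at -184 bp from the start of a shorter annotated transcript. It had a pooled signal of 60.7 (rank 3001), with 29.0 in replicate 1 (rank 2679) and 32.6 in replicate 2 (rank 3538). No window of another protein-coding gene held either interval.

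Another 8 candidates at nhr-49 did not pass the threshold. The strongest of these had a signal of 34.9 (rank 6071) and touched only the end of the gene, with its summit in an intron of the neighbour inx-20. Inside the gene body, the intronic candidate at 639 bp had 33.4 (rank 6427). The coding exon candidate at 3127 bp, which is at -44 bp from another annotated start, had 32.0 (rank 6740). In replicate 1 that place ranked 21660 and in replicate 2 it ranked 5057. The remaining 5 had signals from 9.88 to 18.9. In all, the window held 10 pooled candidates, which 432 protein-coding genes (2.16%) reached or exceeded. Counts were not adjusted for length, and this window was 8.03 kb long, against a median of 5.03 kb over all genes.

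nhr-80, the receptor gene whose product pairs with NHR-49 on the stearoyl desaturases, had 5 pooled candidates and no optimal interval. nhr-80 (WBGene00003670, III:11985-14869, minus strand) had its strongest candidate at III:14659-15048, with the summit in the 5′ UTR, 15 bp inside the gene. The pooled signal was 48.1 (rank 4023), against the lowest optimal signal of 52.2. The −log10 q-value there was 4, the highest value in the pooled list, which 4976 candidates shared. The replicates differed at this place: the signal ranked 6755 in replicate 1 (15.9) and 3192 in replicate 2 (35.1). A candidate at -577 bp, nearest to the 5′ end of the divergent neighbour H10E21.1, had a pooled signal of 32.0 (rank 6749), ranked 3856 in replicate 2 (30.6) and overlapped no interval of replicate 1. The other 3 candidates had signals of 18.2, 13.4 and 10.9.

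nhr-66 carried many candidates inside the gene body and 0 optimal intervals. The gene (WBGene00003656, IV:8226331-8236602, minus strand) encodes the receptor that acts with NHR-49 on lipid remodelling genes, has 7 annotated starts and spans 10.27 kb. At 13.27 kb, its window held 1.06 candidates per kb, fewer than that of mdt-15 (1.46) or nhr-49 (1.25). The total was 14 candidates, the most of the 9 genes. Of these, 4 reached the highest −log10 q-value, with signals of 45.9 (rank 4276), 43.8 (rank 4525), 42.7 (rank 4687) and 40.9 (rank 4926), all below the optimal range. They lay at 3857, 2405, 6992 and 6100 bp from the first start. The first and second of them were intronic and also within a noncoding exon of the antisense gene anr-44, and the other two lay in 5′ UTR sequence of shorter transcripts, one at -33 bp from an internal start. None of the 14 was among the 3647 strongest of both replicates. The interval at 2405 bp ranked 1919 in replicate 1 (signal 35.9) and 12126 in replicate 2 (12.8), whereas that at 6992 bp ranked 11524 in replicate 1 (11.4) and 3051 in replicate 2 (36.4). The candidate at 3857 bp ranked 6337 and 4049, and that at 6100 bp ranked 4220 and 5821. The other 10 candidates had pooled signals from 11.2 to 31.6, and upstream of the first start there were only 2, with 11.2 and 16.5.

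nhr-13 was the receptor gene with the least signal. nhr-13 (WBGene00003612, V:2192485-2196827, plus strand) is another partner gene of nhr-49 and had a single pooled candidate, in intergenic sequence at -202 bp with a signal of 14.2 (rank 19570). The place ranked 15856 in replicate 2 (10.4) and overlapped no interval of replicate 1. Each replicate had 1 further interval farther upstream, with 10 in replicate 1 (rank 14125) and 9.13 in replicate 2 (rank 18676). No interval of any list had its summit within the gene body. Of the 36-base words of that gene body, 25.7% occurred more than once in the genome, nearly all of them as repeats inside the gene (24.0% of words). The part of such copies in the values was not tested.

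The coactivator gene mdt-15 had 1 optimal interval, well upstream of the gene. mdt-15 (WBGene00007016, III:5828557-5833751, minus strand) carried it at III:5835524-5835913, with the summit in intergenic sequence at -1968 bp, at the first of the printed sequences. The pooled signal was 90.7 (rank 1727), with 40 in replicate 1 (rank 1612) and 51.3 in replicate 2 (rank 1916). The replicate summits lay within 7 bp of the pooled one. The nearest annotated 5′ end was that of W04D12.1, a divergent gene, at -1207 bp, and the interval was also in the 3 kb windows of R12B2.6 and R12B2.13. No value here assigns the interval to one of these 4 genes. The window held 11 further candidates, with pooled signals from 11.5 to 32.1. The strongest, at -2750 bp, had 32.1 (rank 6736) and the next, in a coding exon of mdt-15 at 2495 bp, had 32.0 (rank 6757). Closest upstream of the annotated start was a candidate at -321 bp with 25.1 (rank 9302), inside a coding exon of R12B2.6.

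The sbp-1 gene likewise had its single optimal interval far upstream. sbp-1 (WBGene00004735, III:11428367-11442566, minus strand) carried it at III:11444772-11445161, in intergenic sequence at -2401 bp, at the second printed sequence. The pooled signal was 77.9 (rank 2145). It ranked 1807 in replicate 2 (53.1) and 3698 in replicate 1 (23.4), just outside the 3647 strongest intervals of that replicate, which ended at 23.6. The 5′ end of sbp-1 was the nearest of any protein-coding gene, and no other protein-coding gene had the interval in its window. The replicate summits lay within 5 bp of the pooled one. Only 2 other candidates touched the window, one beside the optimal interval with 12.3 (rank 23511) and one in a coding exon at 3906 bp with 11.7 (rank 25013). The gene body is long, at 14.2 kb, but 50.8% of its 36-base words occurred more than once in the genome and 50.5% were repeated within the gene itself. The 390 bp of the optimal interval held 0 such words. How reads of the copied words were placed was not tested.

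The 3 delta-9 desaturase genes differed from one another. fat-6 (WBGene00001398, IV:11913692-11915687, minus strand) had 2 optimal intervals and no other pooled candidate. The stronger, IV:11914751-11915140, lay in an intron at 741 bp from the first annotated start and 221 bp downstream of a second annotated start, with a pooled signal of 91.3 (rank 1710). Its signal was 33.5 in replicate 1 (rank 2157) and 55.4 in replicate 2 (rank 1710). The other, IV:11915790-11916179, had its summit at -298 bp, inside the coding exon of ZK822.9, a small divergent gene whose start lay 38 bp away. The pooled signal was 69.5 (rank 2503), with 27.8 in replicate 1 (rank 2859) and 43.5 in replicate 2 (rank 2433). Both intervals thus stood among the 3647 strongest of each replicate. Both were also in the windows of ZK822.9 and ZK822.10.

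fat-7, the close relative of fat-6, had no interval in any of the pooled, replicate 1 or replicate 2 lists. The window of fat-7 (WBGene00001399, V:7151353-7153146, minus strand) was 4.79 kb long. Over all protein-coding genes, 4638 (23.2%) likewise had no interval in any of these lists. The coding sequences of fat-6 and fat-7 were identical at 857 of 1013 aligned bases (84.6%), with a longest shared run of 44 bases. Sharing was nonetheless rare at the length of a short read: 0.765% of the 36-base words of the fat-6 gene body, and 0.853% of those of fat-7, occurred elsewhere in the genome, all in the other of the pair. At 50 bases there were 0. Upstream of either gene every 36-base word was unique, and neither fat-6 interval shared a run longer than 14 bases with the fat-7 window. Which read length was used is not stated. The pooled list of 30000 intervals ended at a signal of 9.85, so weaker signal at fat-7 would not have been seen.

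fat-5, which encodes the palmitoyl desaturase, stood between the other two. In fat-5 (WBGene00001397, V:17725004-17726818, plus strand), a single pooled candidate touched the window, and only its edge: the summit lay at -3089 bp, outside the 3 kb, with a signal of 20.0 (rank 12586). It ranked 7565 in replicate 2 (18.2) and overlapped no interval of replicate 1. Inside the window, replicate 1 had intervals at -1430 bp (13.2, rank 9142) and -1207 bp (8.96, rank 16937), and replicate 2 had one at -1718 bp (18.9, rank 7225). None of the lists held an interval in the gene body of fat-5. The coding sequence of fat-5 was 67.2% identical to fat-6 and 64.9% to fat-7.

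**Figure D2:**
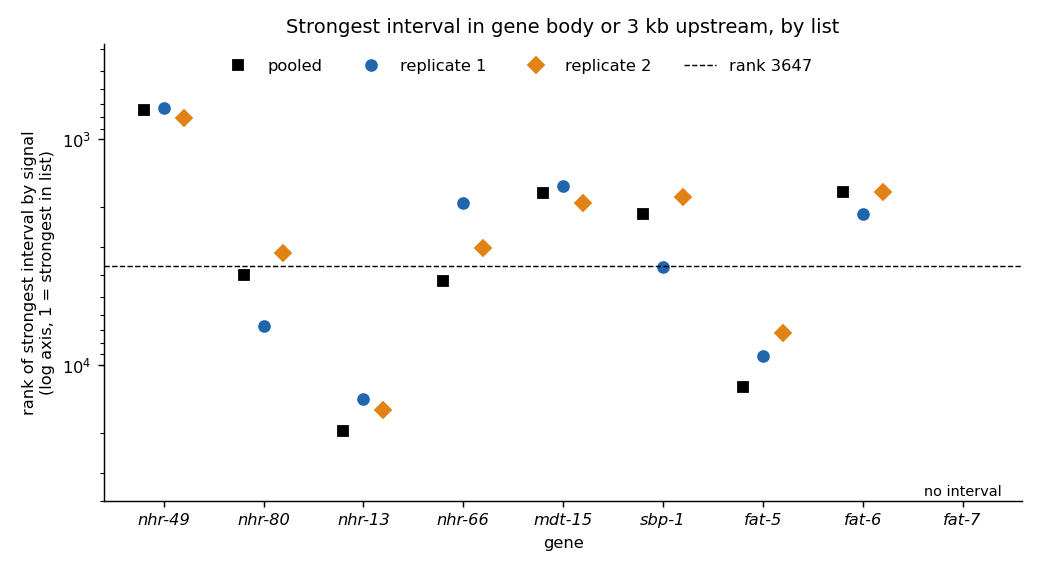
Rank of the strongest interval of each gene (vertical log axis, 1 is the strongest of 30000) in the pooled list (black squares), replicate 1 (blue circles) and replicate 2 (orange diamonds); the dashed line is rank 3647, the number of optimal peaks. nhr-49, mdt-15 and fat-6 lie above the line in all 3 lists, sbp-1 ranks 3698 in replicate 1, and nhr-80 and nhr-66 cross the line in at least 1 replicate but not in the pooled list.

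All 6 optimal intervals overlapped an interval in both replicates, as did 3636 of all 3647 optimal peaks (99.7%). Of the 6, 5 overlapped one of the 3647 strongest of each replicate, the exception being sbp-1. Over all optimal peaks, 2729 (74.8%) did so. Counted by gene, 4 of the 9, nhr-49, nhr-66, mdt-15 and fat-6, had one of the strongest intervals of each replicate somewhere in the window, compared with 16.3% of all protein-coding genes. For nhr-66 these were different intervals in the different replicates, as given above. Of the 42 other candidates at the 9 genes, 27 (64.3%) overlapped an interval in both replicate lists, 14 in one and 1 in neither. Among all other candidates the share in both was 53.3%. In total, the windows held 46 intervals of replicate 1 and 52 of replicate 2, of which 9 and 5 overlapped no pooled candidate. The strongest of these unmatched intervals was that of fat-5 in replicate 2, at 18.9.

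**Figure D3:**
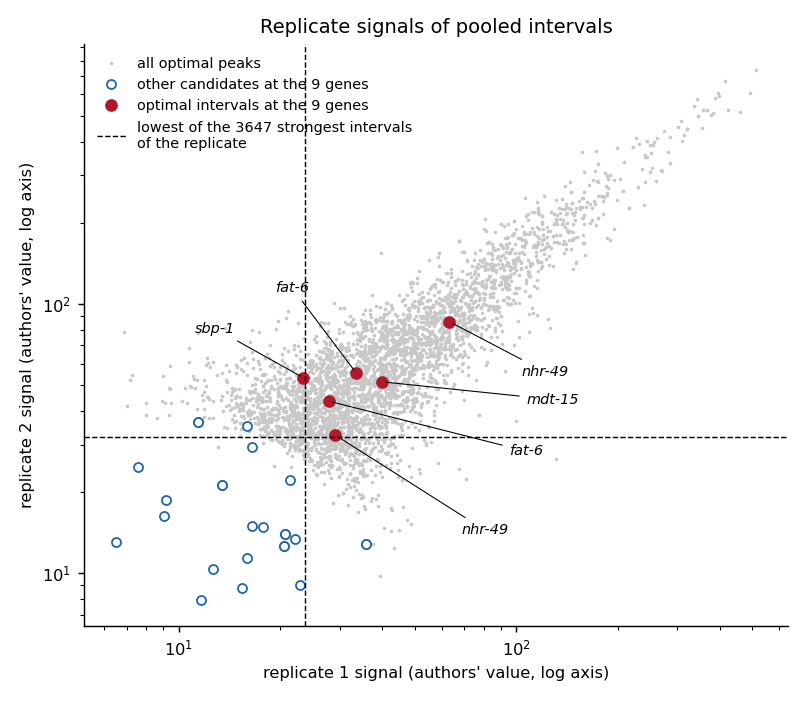
Replicate 2 signal against replicate 1 signal (log axes, the authors' values) of the strongest replicate interval overlapping each pooled interval, for all optimal peaks (grey), the 6 optimal intervals at the 9 genes (red, named) and their other candidates present in both replicates (blue open circles, which coincide where candidates share a replicate interval); dashed lines mark the lowest of the 3647 strongest intervals, 23.6 in replicate 1 and 31.9 in replicate 2. The red points lie within the cloud of optimal peaks, sbp-1 just left of the vertical line and the weaker nhr-49 interval just above the horizontal one.

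A wider list of lipid genes gives these values a setting. It held 65 genes of fatty acid synthesis, desaturation, elongation, oxidation, storage, phospholipid synthesis and their regulation, of which 63 were found by symbol. Of these, 33 (52.4%) had an optimal interval under the same window rule, against 20.2% of all protein-coding genes, and 58 had a candidate. The 33 became 19 with the gene body alone and 21 when only the stronger 50% of peaks counted, where all genes gave 8.67% and 11.3%. Their windows had a median of 6.60 kb, also longer than that of all genes. The strongest interval had a median signal of 117 over the 33 genes with one, and 14 of the 33 exceeded the 148 of nhr-49. For 26 of the 33 the listed gene was also the one with the nearest 5′ end. The list was chosen with earlier results of these data known, and nothing particular to it is claimed from these shares.

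The nuclear receptor gene nhr-68, known for the control of propionate breakdown, led the wider list with 580 (rank 39), although the 5′ end of H12C20.7 was nearer to that summit. aak-2, a catalytic subunit of the energy sensor AMPK, had an intronic interval with a signal of 362. mxl-3, a bHLH repressor of lysosomal lipase genes, had one at -2899 bp with 307 (rank 172). In the group of regulators 12 of 17 genes had an optimal interval, beside 20.2% of all protein-coding genes. Among genes of the SREBP pathway and phosphatidylcholine synthesis it was 6 of 9, led by lpin-1, a phosphatidic acid phosphatase, with 370 (rank 101), and cept-2, a choline or ethanolamine phosphotransferase, with 231 (rank 324). scp-1, the homologue of the SREBP escort protein SCAP, also named after its values were seen, had none, and its strongest candidate was 18.8 (rank 13623).

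Genes of fatty acid oxidation and storage gave further values. acs-2, an acyl-CoA synthetase gene widely used as a reporter of NHR-49 activity, had an optimal interval at -706 bp with 276 (rank 220), and ranked 217 in replicate 1 and 228 in replicate 2. cpt-2, a carnitine palmitoyltransferase gene, had one at -228 bp with 234 (rank 319). Of the 5 oxidation genes found, these were the 2 with an optimal interval, beside 20.2% of all protein-coding genes. atgl-1, the adipose triglyceride lipase gene, had one at -1776 bp with 342 (rank 130), within the 3′ UTR of C05D11.8, and 3 of the 8 storage and transport genes had one. The values of acs-2, cpt-2 and atgl-1 were all above those of the 9 genes.

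The other desaturases, named here after their values were seen, act downstream of the delta-9 step. fat-2, the delta-12 desaturase, had an optimal interval at -1245 bp with 206 (rank 417). fat-1, the omega-3 desaturase, had its strongest at 201 (rank 430), which touched only the end of the gene, at 3275 bp from the 5′ end. fat-3, the delta-6 desaturase, had one in an intron with 56.0 (rank 3329), which ranked 4458 in replicate 1 and 2697 in replicate 2. fat-4, the delta-5 desaturase, had none, with a strongest candidate of 28.5 (rank 7807). Fatty acid synthesis genes had an optimal interval in 4 of 5 cases, elongation genes in 2 of 12 and membrane fluidity sensors in 1 of 3, beside 20.2% of all protein-coding genes. Differences between these small groups were not tested.

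**Figure D4:**
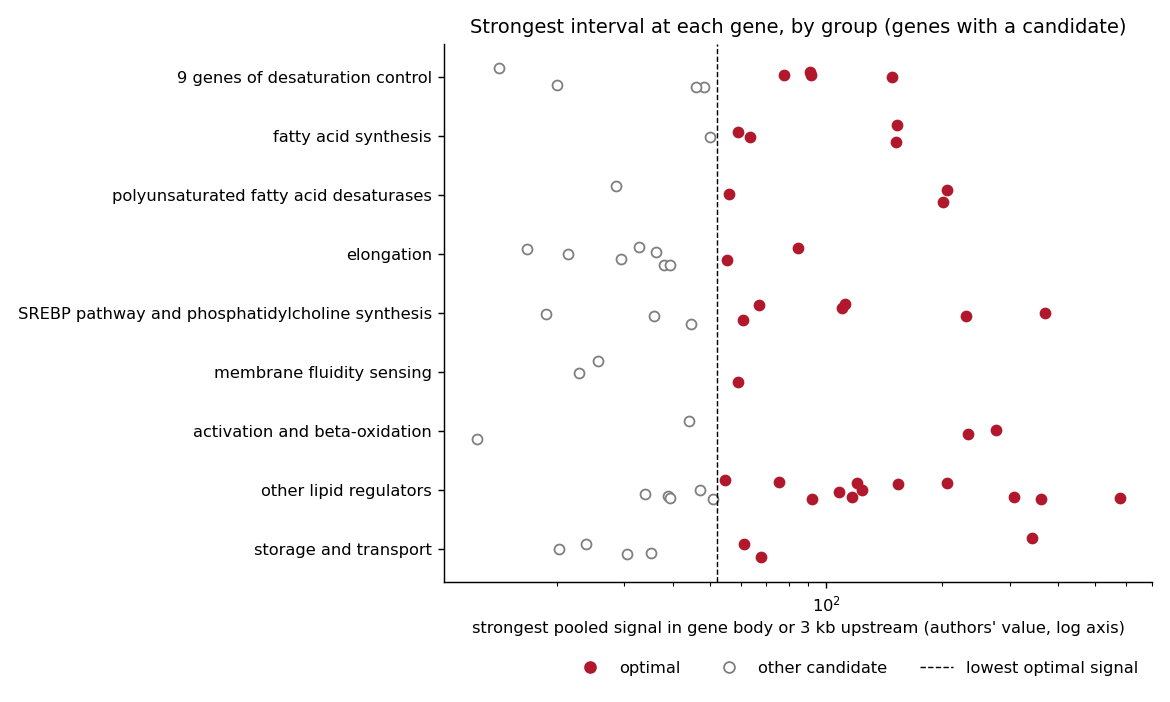
Strongest pooled signal in the gene body or 3 kb upstream (horizontal log axis, the authors' value) of each gene with a candidate, for the 9 genes (top row) and the groups of the wider list; red points are genes with an optimal interval, open points genes with other candidates only, the dashed line the lowest optimal signal of 52.2, and the vertical scatter within a row has no meaning. The 4 red points of the top row lie between 77.9 and 148, while the rows of other regulators, storage and transport, and phosphatidylcholine synthesis reach above 300.

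As for the series as a whole, the optimal list held 3647 peaks, and each of the 3 candidate lists held exactly 30000 intervals. The tagged gene, nhr-21, had 0 intervals of any list in its own window. The lists carry no read totals, and the depth is unknown. Both replicates come from 1 transgenic strain, and binding of an untagged receptor, or of another tagged factor in the same animals, was not measured.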

How the data were processed

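ChIP-seq peak lists of 2 biological replicates were analysed. Per the labels, fragments of 150 to 350 bp were selected. Per the text listings deposited with the samples, peak calling took the ChIP reads and a control as input. Aligner, caller, threshold and read length are not stated. For each interval the authors deposited a signal value on an unstated scale, a −log10 q-value, and a summit offset in bp. One list per replicate and a pooled candidate list were used, with the pooled optimal list, all on build ce11. The ce10 lists were not used.

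Intervals were ranked by signal within each list and assigned to a gene if at least 1 base touched its body or the 3000 bp upstream (Ensembl release 115 models). A replicate value is that of the strongest overlapping replicate interval. Positions are 1-based. RefSeq's WBcel235 sequence was checked against these models: 99.8% of 31853 coding transcripts began with ATG. Words were searched on both strands in 300 bases around summits, and in promoters from 250 bases before to 50 after each gene's 5′ end. Copies of 36-base and 50-base words were counted over the genome. Coding sequences were aligned with Biopython 1.88. Window assignment was tested on simulated data. Python 3.11.15 and pandas 2.3.3 were used. With no control group, no p-value was computed, and counts stand beside all protein-coding genes. Members and lists were chosen with earlier results of these data known. Named genes were the 9 genes, nhr-21, the 8 wider-list genes with the strongest optimal interval, and genes nearest to named intervals. fat-1, fat-2, fat-3, fat-4 and scp-1 were named outside this rule, after their values were seen. Alternatives covered the window, overlap rule, threshold, gene assignment and leaving out each replicate. To leave out a replicate, the 3647 strongest intervals of the other replicate replaced the optimal peaks, without a reproducibility threshold. For candidates, its whole list replaced the pooled list.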

Additional observations from a re-analysis of the deposited data

How the results depend on the processing

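Of the 9 genes, 4 had an optimal interval, and the count fell to 2, nhr-49 and fat-6, both with 1000 bp upstream and with the gene body alone, since the intervals of mdt-15 and sbp-1 lie farther upstream (all genes 15.2% and 8.67%). It was 3 in the stronger 50% of the optimal peaks, without sbp-1 (all genes 11.3%), and 3 when an interval counted only for the nearest 5′ end, without mdt-15 (12.2%). Leaving out a replicate, with the 3647 strongest intervals of the other in place of the optimal peaks, gave 4 to 6 genes. Without replicate 1, nhr-80 and nhr-66, which had no optimal interval, joined the 4 (all genes 20%). Without replicate 2, nhr-66 took the place of sbp-1 (19.7%). The 6 optimal intervals became 2 with the gene body alone and 3 in the stronger 50%. Among the strongest intervals of a single replicate, which need not be optimal, there were between 6 and 8. The 33 genes of the wider list became 19 with the gene body alone and 21 in the stronger 50%. By the strongest intervals of a single replicate they were 30 to 32. The 48 pooled candidates and the 5 optimal intervals shared by the replicates moved by less than 1.5 times under their alternatives (38 to 52 candidates, 5 to 6 intervals). No paired analysis was possible because there is 1 group and no test between groups. Depth is unknown, and signals below the end of a list of 30000 intervals could not be seen.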
